A study of Homo sapiens with 18 samples.

Results

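The proteasome genes of human breast cancer cells were followed across loss of GPS2, expression of an active AKT and inhibition of AKT. All protein-coding genes whose symbol starts with PSMA, PSMB, PSMC, PSMD, PSME, PSMF or PSMG and a digit were taken, which gave 50 of the 57448 rows of the count table. The 51 other rows with such a name, 44 pseudogenes and 7 long non-coding RNAs, were left out. Of the 50 genes, 48 passed the expression filter of at least 1 CPM (reads of a gene scaled to the size of its library) in at least 3 libraries and were tested together with all other genes (15587 in all). The exceptions were PSMA8 and PSMB11, subunits known from testis and thymus, with at most 1 and 3 counts in any library. PSMC3IP and PSME3IP1 also met the naming rule, but they encode proteins that bind a proteasome subunit and are no part of the particle, so they are described apart.

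RNA was sequenced from 6 groups with 3 replicates each, all made from MDA-MB-231, a mesenchymal triple-negative breast cancer line. WT is the unmodified parent. KO1 and KO2 carry a CRISPR-Cas9 knockout of GPS2, a transcriptional cofactor and inhibitor of ubiquitin conjugation, made with sgRNA set 1 and sgRNA set 2 in a lentiviral vector, and were kept as mixed pools of edited cells without picking clones. The myrAKT line holds a retroviral, myristoylated AKT1, which sits at the membrane and is constantly active. KO1+MK and KO2+MK are the knockout pools exposed to MK2206, an allosteric AKT inhibitor, at 10 µM for 4 h. KO stands for both pools together (6 libraries), and the labels name neither a vehicle for the untreated pools nor an empty vector for WT.

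Library totals ran from 23419198 to 39319910 counted reads, and the 6 treated libraries, at 23419198 to 29939536, were the shallowest. Mitochondrial genes took 1.29% to 2.07% of the reads. The markers of the line were high in WT, with a mean of 1362 CPM for VIM, 1020 CPM for AXL and 580.4 CPM for CD44, while CDH1, PGR, PTPRC, KRT5 and KRT14 were at or near 0 and ESR1 stood at 0.962 CPM. PECAM1, an endothelial marker, was at a mean of 3.57 CPM in WT, 1.72 CPM in KO1, 3.97 CPM in KO2 and 21.1 CPM in myrAKT, and its part in the results was not tested. AKT1 was higher in myrAKT by 0.77 log2 (SE 0.0443, adjusted p = 4.27e-09, edgeR). GPS2 had a mean of 4.56 CPM in WT, 4.49 CPM in KO1 and 6.02 CPM in KO2, so its RNA level does not show the edit. The labels do not say whether replicates came from separate cultures, and p-values measure only the spread between these libraries.

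The proteasome is the particle that degrades proteins tagged with ubiquitin. Its barrel, the 20S core, is built of alpha subunits (PSMA), which form the gate, and beta subunits (PSMB), of which PSMB5, PSMB6 and PSMB7 cut the peptide chain. Interferon can replace these with PSMB8, PSMB9 and PSMB10, which gives the immunoproteasome that produces peptides for antigen presentation. The 19S cap, made of ATPases (PSMC) and non-ATPase subunits (PSMD), binds and unfolds the substrate. PSME1, PSME2, PSME3 and PSME4 encode alternative caps, PSMF1 an inhibitor, and PSMG1 to PSMG4 chaperones of 20S assembly. Chaperones of the 19S base are PSMD5, PSMD9, PSMD10 and PAAF1, the last of which the naming rule does not take in. When the proteasome falls short, the transcription factor NFE2L1 raises its subunit genes through antioxidant response elements in their promoters.

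Of the 50 genes, 44 had a promoter window in RefSeq (GRCh38.p14), reaching from 250 bases before to 50 bases after the start. Both strands were searched for the core of the antioxidant response element, TGACNNNGC, the CCAAT box, CCAAT, and the E-box, CACGTG, where N is any base. The element core was present in 15 of the 44 genes (34.1%), against 16.1% of all 27305 symbols with a window and 19.4% of the 11024 tested genes with one. The CCAAT box was found for 22 genes (50%), against 42.9% of tested genes, and the E-box for 4 (9.09%), against 12.2%. A match describes letters in the window and does not show a bound factor. The 250 bases before the start are printed for 3 genes that the results turn on, the core chaperone gene PSMG1 and the cap chaperone gene PSMD5, which rose in the knockout pools, and the immunoproteasome gene PSMB9, which fell there. They were chosen after their values were seen, and all 3 hold the element core, which the windows of PSME3 and PSMC3IP, both higher in the knockout pools, do not. Capitals mark matches to the element core or the CCAAT box on either strand.
PSMG1, chr21:39183452-39183701, minus strand: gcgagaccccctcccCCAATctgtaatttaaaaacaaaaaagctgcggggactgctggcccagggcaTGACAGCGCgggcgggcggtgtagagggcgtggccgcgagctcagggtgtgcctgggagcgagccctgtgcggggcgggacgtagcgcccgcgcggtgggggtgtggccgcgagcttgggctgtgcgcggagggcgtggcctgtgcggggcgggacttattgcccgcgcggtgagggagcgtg
PSMD5, chr9:120842923-120843172, minus strand: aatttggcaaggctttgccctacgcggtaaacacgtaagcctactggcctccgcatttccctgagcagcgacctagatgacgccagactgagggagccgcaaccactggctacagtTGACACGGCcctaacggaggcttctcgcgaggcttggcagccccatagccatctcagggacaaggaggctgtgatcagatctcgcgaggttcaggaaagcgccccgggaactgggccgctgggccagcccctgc
PSMB9, chr6:32853942-32854191, plus strand: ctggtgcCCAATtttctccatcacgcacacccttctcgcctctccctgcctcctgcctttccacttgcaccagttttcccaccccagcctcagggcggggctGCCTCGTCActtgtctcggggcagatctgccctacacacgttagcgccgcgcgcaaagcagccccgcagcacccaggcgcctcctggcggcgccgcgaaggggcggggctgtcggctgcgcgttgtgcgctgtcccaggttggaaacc
The element core begins 183 bases before the start in PSMG1, 134 bases before it in PSMD5 and 148 bases before it in PSMB9, where it lies on the opposite strand. Of the 20 genes higher in the knockout pools, 18 had a window, 8 of these held the core and 10 did not.

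In the parental cells, levels were compared between genes as CPM per kb of the canonical transcript. The 7 constitutive beta subunits had a median of 143 CPM per kb, and 6 of them lay between 122 for PSMB5 and 154 for PSMB3. PSMB2 stood at 29.8, with a canonical transcript of 4426 bases against 762 to 1044 bases for the rest. Among the alpha subunits, PSMA7 was at 257 CPM per kb and PSMA3 at 151, while PSMA1, PSMA6 and PSMA2 were at 33.6, 23.2 and 5.24. These last 3 share 67.0%, 81.4% and all of their canonical bases with a read-through gene annotated on the same strand, itself counted at no more than 0.166 CPM in any library, and how the authors counted reads in more than 1 gene is not given in the sources used here. PSMB10 (56.1% shared) and PSMD9 (28.8%) also share bases with such a gene, counted at 1.18 to 2.94 CPM for PSMB10 and at no more than 0.29 CPM for PSMD9. The levels of these 5 genes are uncertain. PSMC1 shares 83.2% of its bases with NRDE2 and PSMC3IP 57.2% with MLX on the opposite strand, and PSMD7 shares 51.6% with a non-coding RNA. NRDE2 was counted at 21.6 to 29.1 CPM and MLX at 49.8 to 85.2 CPM, above PSMC3IP in all libraries, and as strand is not given, the levels and changes of PSMC1 and PSMC3IP are uncertain too. PSMC5 shares 13.7% of its bases with FTSJ3 on the opposite strand, counted at 98.6 to 147.0 CPM. The part of such reads in the level and change of PSMC5 was not tested.

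The 11 non-ATPase subunits of the 19S cap had a median of 77.1 CPM per kb, and PSMD2, a scaffold that receives substrates, led with 251. The 6 ATPases had a median of 50.7, from 12.5 for PSMC1 to 128 for PSMC3. The chaperones were lower, with medians of 17.5 for the 4 PSMG genes and 18.8 for the 3 PSMD chaperones of the 19S base. PSMB8, PSMB9 and PSMB10 were at 38.6, 15.7 and 5.61 CPM per kb. The medians of the 4 structural classes, alpha at 40.8 being the lowest, thus lay above those of both chaperone classes, although PSMG2 reached 58.5.

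Knockout of GPS2 was accompanied by higher RNA of many proteasome genes. Of the 48 tested, 20 (41.7%) were higher in KO than in WT and 1 was lower at an adjusted p of at most 0.001 in edgeR's quasi-likelihood test with Benjamini-Hochberg adjustment over all genes. Over all 15587 genes, 15.5% were higher and 16.6% lower. In RNA from whole cultures, a change in every cell and a change in the make-up of the pool cannot be told apart. The log2 fold change was above 0 for 41 of 48, with a median of 0.17, against a median of -0.003 over all genes. The changes were small, and 4 calls also passed a fold of 1.5 (PSMG1, PSMC3IP and PSME3 higher, PSMB9 lower). The 48 genes took 0.570% to 0.581% of the reads in WT, 0.655% to 0.669% in KO1 and 0.657% to 0.677% in KO2, with no overlap between WT and either pool.

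**Figure D1:**
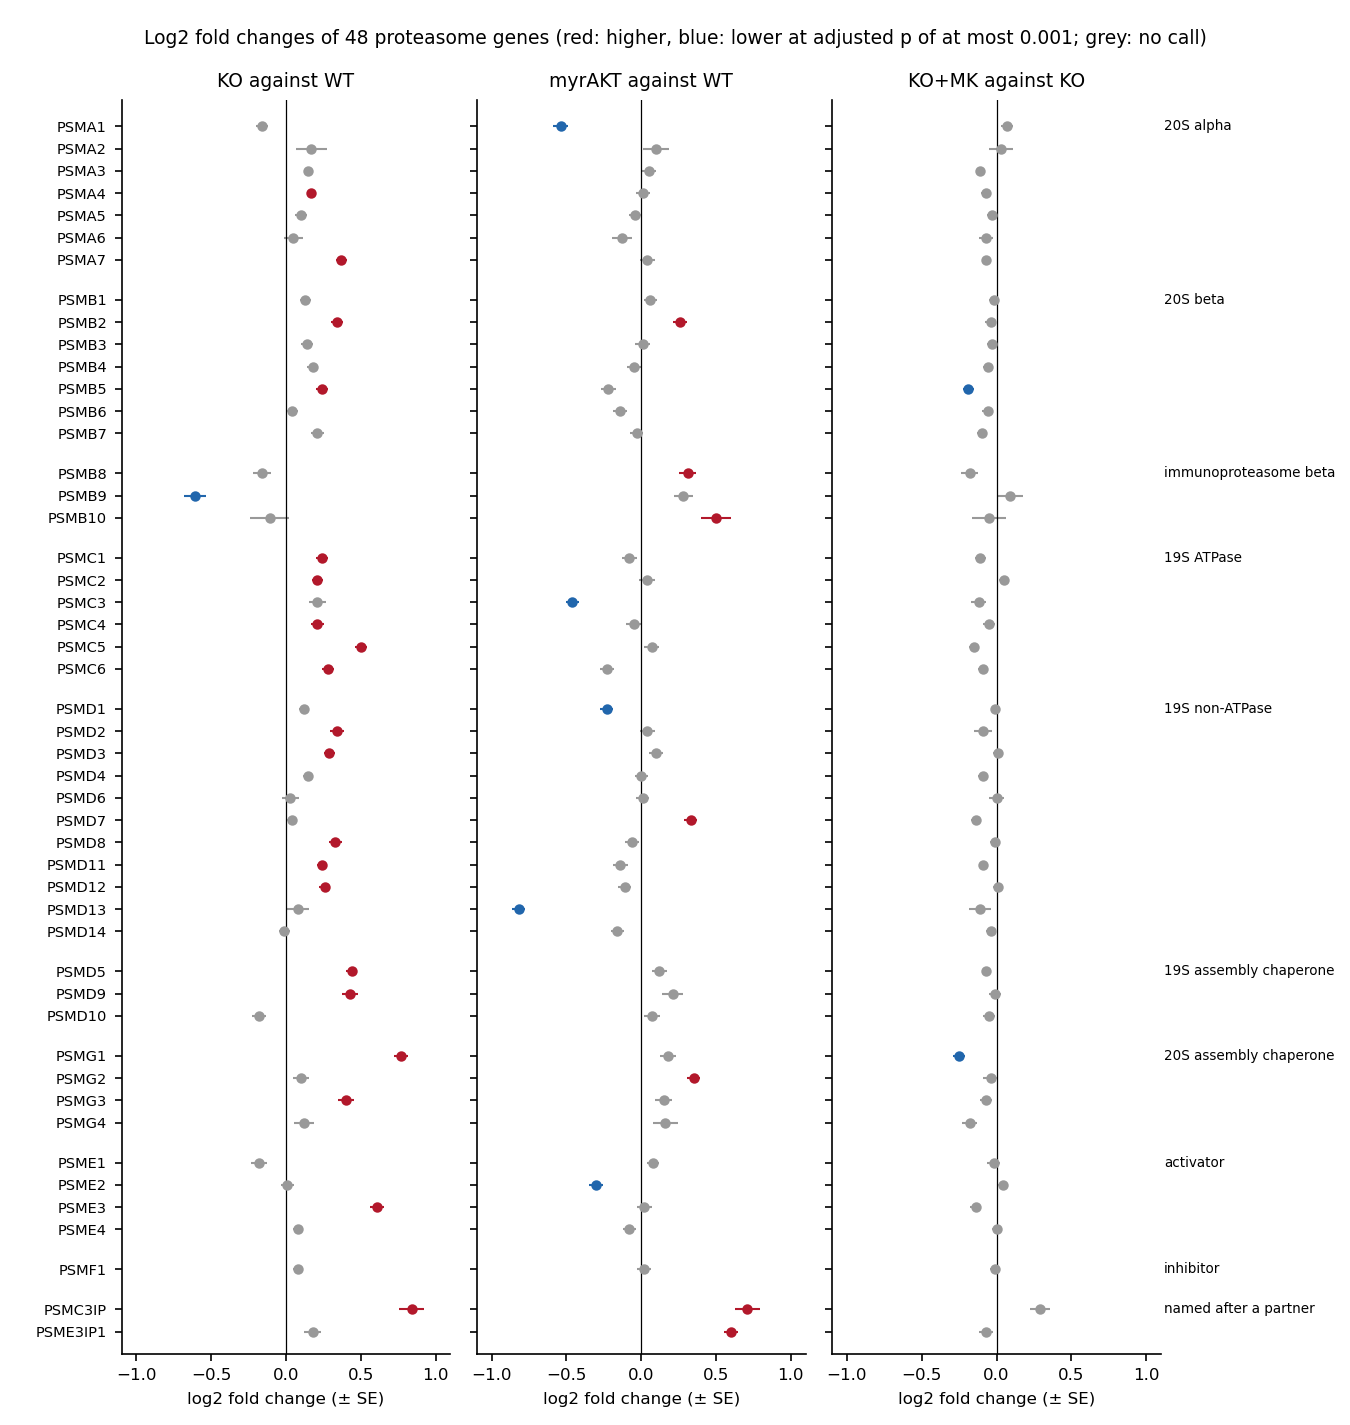
Log2 fold changes (x axis, bars show SE) of the 48 tested proteasome genes (y axis, ordered by role) for KO against WT, myrAKT against WT and KO+MK against KO. Red and blue points passed an adjusted p of at most 0.001 as higher or lower, and grey points did not. The 20 red points of the first panel spread over nearly all roles, while the last panel holds 2 blue points, PSMG1 and PSMB5.

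The largest rise among genes of the particle and its assembly was that of PSMG1, a chaperone that pairs with PSMG2 to set up the ring of alpha subunits. PSMG1 (ENSG00000183527, chromosome 21, 39174769 to 39183488, hg38) was at 32.2, 31.7 and 30.2 CPM in WT, 55.4, 52.9 and 57.9 CPM in KO1 and 51.9, 54.1 and 53.7 CPM in KO2. The 6 knockout libraries all lay above the 3 WT libraries. The difference was 0.77 log2 (SE 0.0448, adjusted p = 2.14e-07). Its partner PSMG2 changed by 0.10 (adjusted p = 0.145). PSMG3 rose by 0.40 (adjusted p = 6.66e-05), and its partner PSMG4 was at 0.12 (adjusted p = 0.131). With the pools together, each chaperone pair thus held 1 gene that rose and 1 that did not pass the test. In KO2 alone PSMG2 was also higher than in WT, by 0.19 (adjusted p = 0.000251, lost without KO2 replicate 1 or 3 or WT replicate 3 at 0.16 to 0.20).

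In the rings of the core, 4 of the 14 subunits rose in the pools together (15.5% of all genes). Taken singly against WT, 2 of the 7 alpha and 5 of the 7 beta subunits rose in KO1 (20.5% of all genes), and 2 and 3 in KO2 (20.8%). For the pools together the alpha subunits that rose were PSMA7, by 0.37 (adjusted p = 8.69e-06), and PSMA4, by 0.17 (adjusted p = 0.000691). PSMA7 was at 238.7, 257.7 and 244.0 CPM in WT and between 309.5 and 335.7 CPM in the 6 knockout libraries. The call of PSMA4 was lost without KO1 replicate 3, KO2 replicate 1 or 3, or any WT library, at 0.15 to 0.20. Of the 7 constitutive beta subunits, PSMB2 rose by 0.34 (adjusted p = 2.48e-05) and PSMB5, the chymotrypsin-like site, by 0.24 (adjusted p = 0.000271). PSMB5 was at 121.3, 131.7 and 129.6 CPM in WT, 151.4, 147.3 and 159.8 CPM in KO1 and 156.5, 146.8 and 155.9 CPM in KO2. Without WT replicate 1 it stood at 0.21 and missed the threshold. The other catalytic genes were at 0.04 for PSMB6 (adjusted p = 0.343) and 0.21 for PSMB7 (adjusted p = 0.00112), and PSMB7 passed without KO1 replicate 1 (0.23) or KO2 replicate 2 (0.24). PSMB7 was also called by DESeq2 (adjusted p = 1.09e-05), with RLE or upper-quartile scaling, without the CPM filter, with separate pools and in the fit of all 18 libraries, and in KO1 (0.22) and KO2 (0.20) singly. Its call in KO2 was lost without KO2 replicate 1 or 3 or any WT library, at 0.15 to 0.22.

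Of the 6 ATPases of the 19S base, 5 were higher in KO (15.5% of all genes), 3 of which lost the call with some libraries left out. All 6 were at 0.21 log2 or above, and the gene that did not pass was PSMC3 (0.21, adjusted p = 0.00721, and past the threshold at 0.26 without KO2 replicate 2 and by DESeq2 at 0.22). PSMC5 rose most, by 0.50 (SE 0.0389, adjusted p = 1.11e-06). It was at 119.8, 129.6 and 120.9 CPM in WT, 180.8, 171.6 and 183.0 CPM in KO1 and 181.0, 169.1 and 177.8 CPM in KO2, again without overlap. PSMC1, PSMC2 and PSMC4 rose by 0.21 to 0.24 and lost the call without WT replicate 1 (0.23, 0.19 and 0.20) or WT replicate 3 (0.27, 0.25 and 0.22). PSMC1 also lost it without WT replicate 2 (0.27), PSMC2 without KO2 replicate 1 or 3 (0.21 each), and PSMC4 without KO1 replicate 2 or 3 or KO2 replicate 1 or 3 (0.20 to 0.22). Of the 11 non-ATPase subunits, 5 rose against the same 15.5% of all genes, PSMD2, PSMD3, PSMD8, PSMD11 and PSMD12, by 0.24 to 0.34, and the other 6 lay between -0.01 and 0.15. PSMD2 missed the threshold without WT replicate 1, at 0.32. Of the 3 PSMD chaperones of the base 2 rose, with PSMD5 at 0.44 (adjusted p = 1.84e-06), PSMD9 at 0.43 (adjusted p = 2.77e-05) and PSMD10 at -0.18 (adjusted p = 0.00407). PSMD5, which holds PSMC1 and PSMC2 before the cap is complete, was at 60.3, 65.2 and 65.5 CPM in WT and between 84.9 and 88.8 CPM in the knockout libraries.

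Of the 4 alternative caps and the inhibitor, 1 gene was called higher in KO and 0 lower (15.5% and 16.6% of all genes). PSME3, whose ring caps proteasomes in the nucleus, rose by 0.61 (SE 0.0457, adjusted p = 8.97e-07), from 186.6, 196.6 and 191.7 CPM in WT to 306.5, 289.7 and 320.9 CPM in KO1 and 294.3, 277.6 and 289.5 CPM in KO2. The interferon-inducible caps PSME1 and PSME2 were at -0.18 (adjusted p = 0.014) and 0.01 (adjusted p = 0.774), PSME4 at 0.08 (adjusted p = 0.0456) and the inhibitor PSMF1 at 0.08 (adjusted p = 0.057). Differences between the caps were not tested. Of the genes named after a partner, PSMC3IP, a cofactor of meiotic recombination, rose by 0.84 (adjusted p = 5.55e-06), from 9.42 to 10.9 CPM in WT to 15.7 to 19.6 CPM in the knockout pools. PSME3IP1 was at 0.18 (adjusted p = 0.0162).

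**Figure D2:**
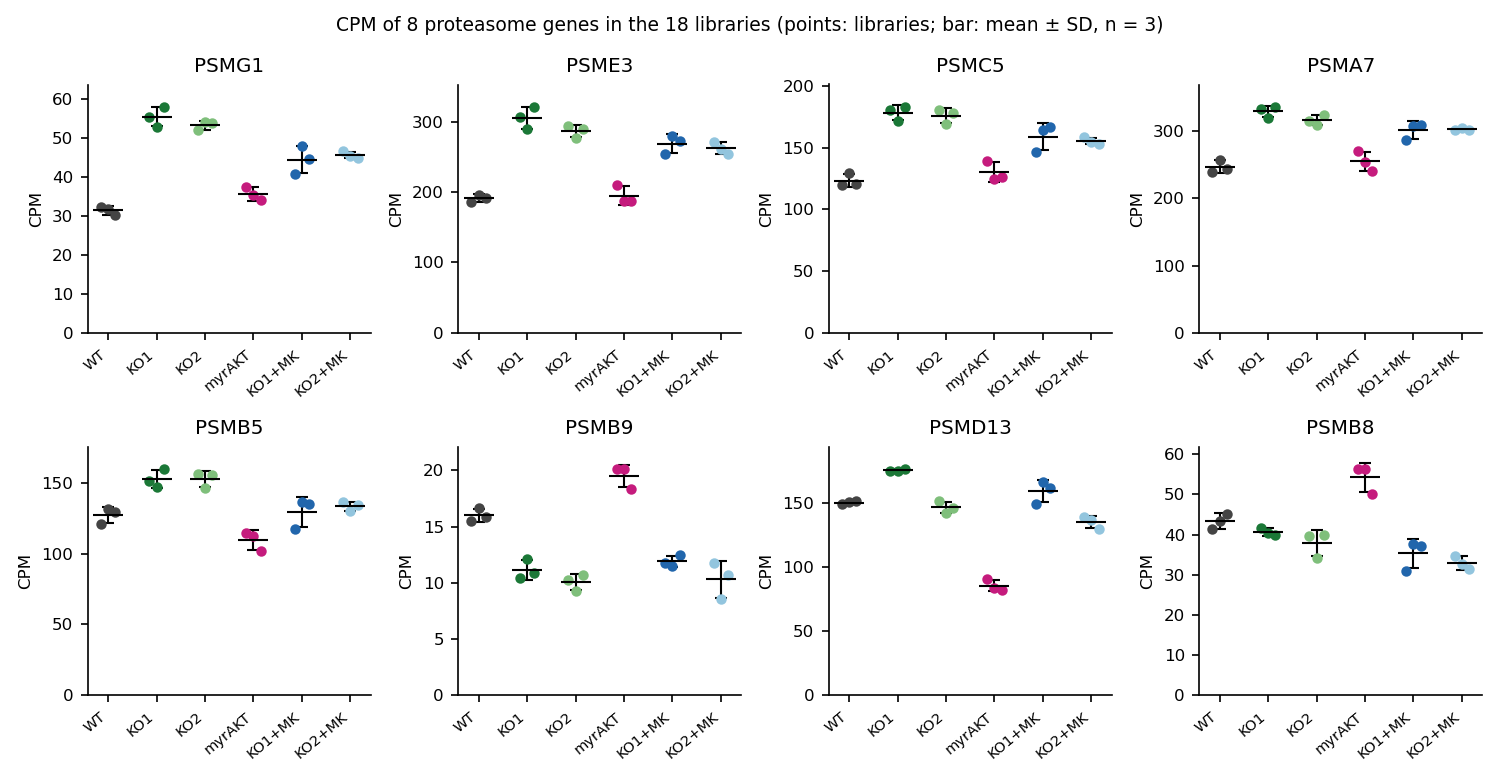
CPM (y axis, from 0) of 8 proteasome genes in each of the 18 libraries by group (x axis), with points for libraries and a bar for the mean ± SD of 3 replicates. PSMG1, PSME3, PSMC5, PSMA7 and PSMB5 lie higher in KO1 and KO2 than in WT, PSMB9 lies lower there, and PSMD13 is lowest in myrAKT, at 82.3 to 90.9 CPM.

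Of the 3 immunoproteasome subunits, 0 were higher and 1 was lower in KO by edgeR (15.5% and 16.6% of all genes), counts too small to be read against those shares. PSMB9 (ENSG00000240065, chromosome 6, 32844136 to 32859851) was the gene that fell, by 0.61 log2 (SE 0.0737, adjusted p = 2.65e-05), and it kept the call with each library left out. It was at 15.5, 16.7 and 15.8 CPM in WT, 10.4, 12.1 and 10.9 CPM in KO1 and 10.2, 9.31 and 10.7 CPM in KO2. PSMB8 was at -0.16 (adjusted p = 0.0332) and PSMB10 at -0.11 (adjusted p = 0.502), and the difference from the constitutive subunits was not tested. Among the related genes, TAP1, the peptide transporter gene that shares a promoter region with PSMB9 and is read away from it, fell by 0.45 (adjusted p = 0.000423), with mean levels of 60.9 CPM in WT, 49.1 CPM in KO1 and 41.2 CPM in KO2. The call of TAP1 was lost without KO2 replicate 1 or 3 or any WT library, at -0.45 to -0.41. TAP2, the gene of its partner in the transporter and in the same locus, was at 0.13 (adjusted p = 0.138), with 0.25 (adjusted p = 2.17e-05, a call) in KO1 and 0.01 (adjusted p = 0.742) in KO2.

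Each immunoproteasome subunit was also set against the constitutive subunit it replaces, per transcript length and within each library, where the scale of the library cancels. PSMB8 came to 31.7%, 30.6% and 32.4% of PSMB5 in WT. The share was 25.6%, 25.5% and 23.1% in KO1 and 23.6%, 21.7% and 23.8% in KO2, but 45.4%, 46.5% and 45.7% in myrAKT. The 3 sets of values, parental, knockout and myrAKT, did not overlap. The denominator moved too, as PSMB5 was at 115.0, 112.4 and 102.0 CPM in myrAKT (-0.22, adjusted p = 0.00183, and lower by DESeq2 at an adjusted p of 0.000295). PSMB6 was at -0.14 (adjusted p = 0.0248) and PSMB7 at -0.03 (adjusted p = 0.635) in myrAKT. In the pools, PSMB5 had means of 127.5 CPM in WT, 152.8 CPM in KO1 and 153.0 CPM in KO2. In the same order PSMB8 was at 43.35, 40.69 and 37.95 CPM, PSMB6 at 117.7, 121.4 and 124.5 CPM, and PSMB7 at 132.2, 156.4 and 153.0 CPM. The fall of the ratios in the pools thus holds a rise of the denominator too. PSMB9 relative to PSMB6 gave 11% ± 0.0524 (SD, n = 3) in WT, 7.42% ± 0.579 in KO1, 6.54% ± 0.195 in KO2 and 14.7% ± 0.0185 in myrAKT. PSMB10 relative to PSMB7 gave 4.18% ± 0.215, 2.90% ± 0.348, 3.86% ± 0.356 and 6.03% ± 0.302 in the same order, and KO2 reached into the WT range here. All 3 ratios were highest in myrAKT. The ratios are given as a description and were not tested.

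**Figure D3:**
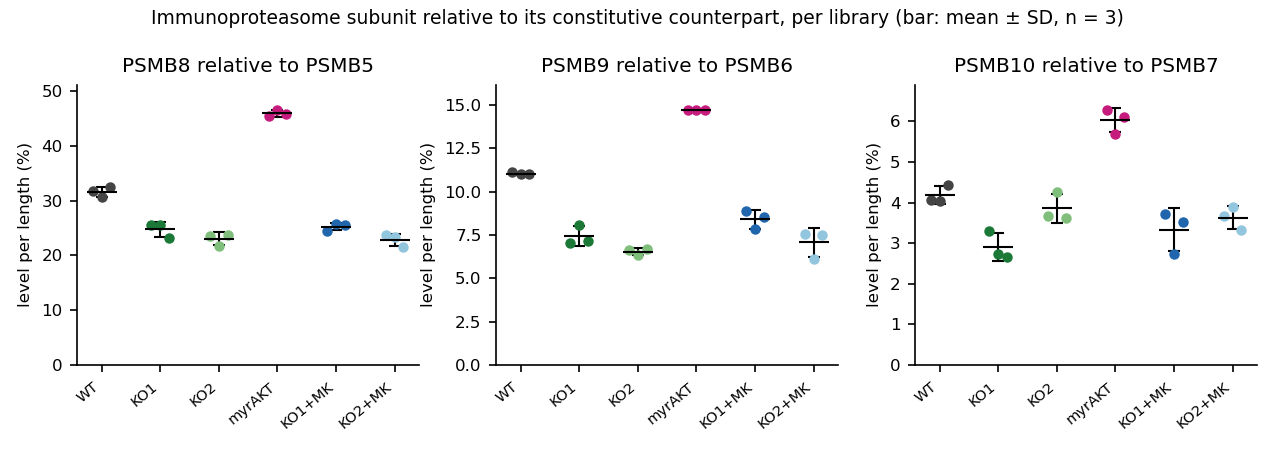
Level per length of PSMB8, PSMB9 and PSMB10 as a percentage of PSMB5, PSMB6 and PSMB7 (y axis, from 0) in each library by group (x axis), with the mean ± SD of 3 replicates. Libraries of myrAKT lie highest in all 3 panels, and those of KO1 and KO2, treated or not, lie below WT in the first and second panel.

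The pools were compared with WT and with each other to see how far they moved alike. Against the same WT libraries, 27 of the 48 genes were higher and 3 lower in KO1 (20.5% and 21.3% over all genes), and 23 were higher and 1 lower in KO2 (20.8% and 22.2%). The median was 0.17 in KO1 and 0.18 in KO2. PSMG1 stood at 0.80 and 0.76, PSME3 at 0.65 and 0.58, PSMC5 at 0.51 and 0.50 and PSMB9 at -0.54 and -0.68 in KO1 and KO2. The genes lower in KO1 were PSMB9, PSME1 (-0.24, adjusted p = 7.8e-05) and PSMD10 (-0.23, adjusted p = 0.000573). PSME1 lost the call without KO1 replicate 1 (-0.23) or WT replicate 3 (-0.22), and PSMD10 without any KO1 library or WT replicate 3 (-0.24 to -0.19).

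Tested directly, KO2 differed from KO1 in 4 of the 48 genes, 2 higher and 2 lower (5.54% and 7.06% over all genes). PSMD13, a structural subunit of the 19S lid, was at 175.2, 175.5 and 176.5 CPM in KO1 and 151.5, 142.6 and 146.1 CPM in KO2, against 149.0 to 151.4 CPM in WT. KO1 thus lay above WT, while KO2 ran from below the WT range to just above it. PSMD13 was lower in KO2 by 0.25 (adjusted p = 5.8e-06). PSMC3 was lower by 0.17 (adjusted p = 0.000421), PSMD6 higher by 0.18 (adjusted p = 0.000218) and PSMG2 higher by 0.18 (adjusted p = 0.000871). The calls of the last 3 were lost without KO1 replicate 1 (-0.16, 0.19 and 0.16), KO1 replicate 3 (-0.17, 0.17 and 0.19) or KO2 replicate 1 (-0.18, 0.16 and 0.19), and that of PSMG2 also without KO1 replicate 2 (0.20) or KO2 replicate 3 (0.16). These 4 genes fall outside the naming rule for this comparison and were named after their values were seen.

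The myrAKT line did not show the broad rise. Of the 48 genes, 7 were higher and 5 lower than in WT (12.7% and 17.3% over all genes), 28 were above 0 and the median was 0.02, against 0.016 over all genes. Of the 5 genes highest in KO by log2 fold change, PSMC3IP was also higher here, and the 4 of the particle and its assembly did not pass the test. PSMG1 was at 37.5, 35.3 and 34.0 CPM in myrAKT (0.18 log2, adjusted p = 0.0108), PSME3 at 0.02 (adjusted p = 0.797), PSMC5 at 0.07 (adjusted p = 0.232) and PSMD5 at 0.12 (adjusted p = 0.0495). Set directly against myrAKT, KO was higher for 20 of the 48 genes and lower for 5 (19.1% and 16.7% over all genes), with PSMG1 at 0.59 (adjusted p = 7.69e-07), PSME3 at 0.59 (adjusted p = 1.85e-06) and PSMB5 at 0.46 (adjusted p = 3.72e-06).

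Of the 7 genes higher in myrAKT, 2 were the partner genes PSMC3IP (0.71, adjusted p = 6.72e-06) and PSME3IP1 (0.60, adjusted p = 4.43e-08). PSMB10 rose by 0.50 (adjusted p = 0.000874), from 5.21, 5.32 and 5.93 CPM in WT to 8.53, 7.19 and 7.72 CPM. PSMB8 rose by 0.31 (adjusted p = 0.000212), from 41.4, 43.5 and 45.2 CPM to 56.2, 56.2 and 50.2 CPM, and PSMB9 was at 0.28 (adjusted p = 0.00201, and past the threshold at 0.32 with library totals or upper quartiles). PSMB9 was at 15.5, 16.7 and 15.8 CPM in WT and 20.1, 20.1 and 18.3 CPM in myrAKT. Against myrAKT, KO was lower in PSMB9 by 0.90 (adjusted p = 9.23e-07) and in PSMB8 by 0.48 (adjusted p = 2.47e-05), while PSMB10 was at -0.61 (adjusted p = 0.00134). NLRC5, an activator of antigen presentation genes, was also higher in myrAKT, by 0.61 (adjusted p = 5.84e-06), with 17.5 CPM in WT and 26.8 CPM in myrAKT. It lies on chromosome 16, where the median of the 694 tested genes was 0.27 and 34.0% were called higher. The call of PSMB10 was lost with any 1 of the 6 libraries left out (0.43 to 0.57), and that of PSMB8 without WT replicate 1 (0.27), WT replicate 2 (0.32) or myrAKT replicate 1 or 2 (0.28 each). The other genes that rose were PSMG2 by 0.35 (adjusted p = 1.32e-05), the lid subunit PSMD7 by 0.33 (adjusted p = 1.35e-05) and PSMB2 by 0.26 (adjusted p = 0.000391, lost at 0.21 to 0.29 without any library but myrAKT replicate 3).

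The falls in myrAKT were led by genes on chromosome 11. PSMD13 fell by 0.82 (SE 0.0441, adjusted p = 2.14e-09), from 149.0, 150.9 and 151.4 CPM to 90.9, 83.8 and 82.3 CPM. PSMA1 fell by 0.54 (adjusted p = 6.55e-07) and PSMC3 by 0.46 (adjusted p = 5.29e-07). The median of the 866 tested genes on chromosome 11 was -0.54, and 67.0% of them were called lower. PSME2 (-0.30, adjusted p = 8.07e-05, lost at -0.27 without WT replicate 3) and PSMD1 (-0.23, adjusted p = 0.000491, lost at -0.22 without WT replicate 2 or 3 or myrAKT replicate 2 or 3) completed the list. PSMD1, PSME3IP1 and, in the knockout pools, PSMC1, PSMC2, PSMC4, PSMD10 and the 19S non-ATPase genes were named after their values were seen.

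Each gene was therefore set beside the tested genes that start within 10 Mb of it, a step chosen after seeing the data. Around PSMA1, PSMC3 and PSMD13 the median change in myrAKT was -0.48, -0.55 and -0.44. Around PSMB10, PSMD7 and PSME3IP1 on chromosome 16 it was 0.55, 0.54 and 0.47, around PSMG2 on chromosome 18 it was 0.21, and around PSMB5, PSME1 and PSME2 on chromosome 14 it was -0.23. PSMA1, PSMC3, PSMB10 and PSME2 thus changed by about as much as the genes around them. PSMD13 fell further, and PSME1, at 0.08, did not share the fall of its neighbours. PSMC3IP (0.71) and PSMB8 (0.31) had neighbour medians of 0.00 and 0.12. Across the 48 genes, Pearson's r between a gene's change and the median around it was 0.765 and Spearman's rho 0.581 in myrAKT, a description over genes of the same libraries, some of which share neighbours. The part of chromosomal position in these changes was not tested.

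For KO against WT the same r was 0.0729 (rho 0.204). The medians around the 48 genes ran from -0.13 to 0.16, with 0.02 around PSMG1, -0.04 around PSME3, -0.06 around PSMC5 and 0.00 around PSMA7, and 41 of the 48 genes lay above the median around them. For KO2 against KO1 r was 0.6 (rho 0.442), and the medians were -0.13 around PSMD13 and PSMC3 and 0.19 around PSMD6 and PSMG2. For KO against myrAKT r was 0.614 (rho 0.425), and 41 of the 48 genes lay above the median around them. The 20 genes higher there include PSMA1, PSMC3 and PSMD13 on chromosome 11 and PSMB5 and PSME2 on chromosome 14. The 5 lower include PSMD7 and PSME3IP1 on chromosome 16, and the part of position was not tested. Without the 3 genes each on chromosomes 11 and 16, the counts were 20 higher and 1 lower in KO, and 4 higher and 2 lower in myrAKT.

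**Figure D4:**
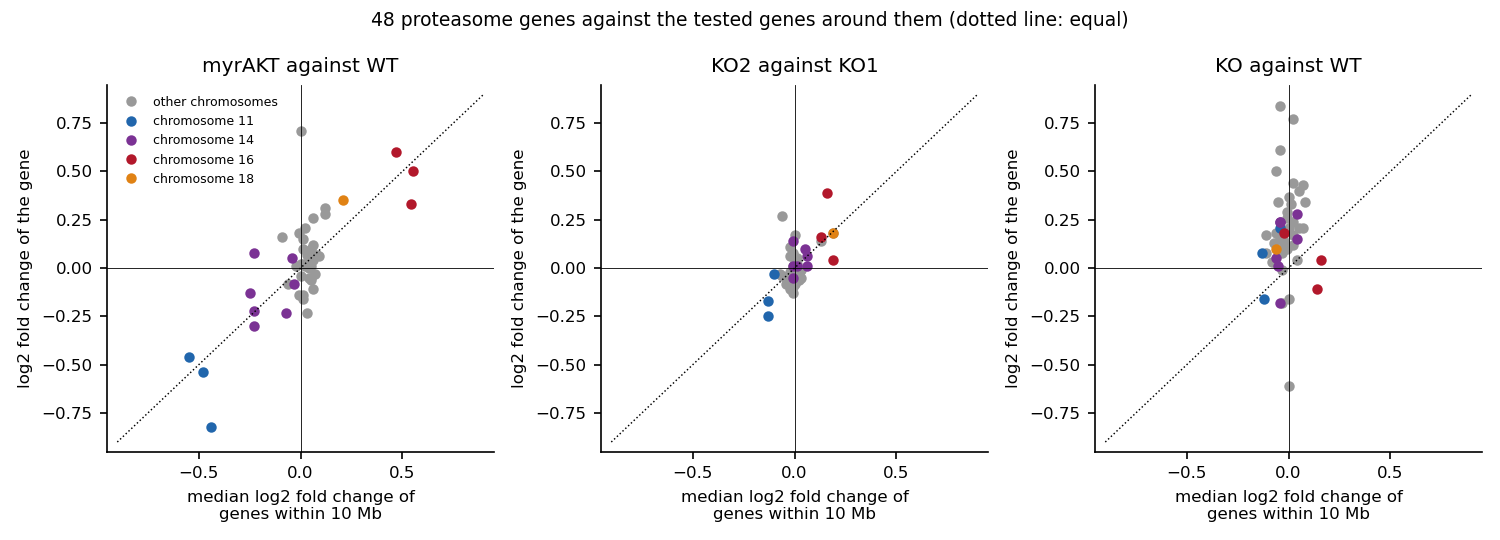
Log2 fold change of each of the 48 genes (y axis) against the median of the tested genes starting within 10 Mb (x axis) for myrAKT against WT, KO2 against KO1 and KO against WT, with chromosomes 11, 14, 16 and 18 in colour and a dotted line of equality. Points follow the line in the first panel and stand above it near 0 in the last.

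Exposure of the knockout pools to MK2206 for 4 h left most proteasome genes without a call. None of the 48 was higher and 2 were lower in KO+MK than in KO, against 12.8% higher and 8.75% lower over all genes, and no gene passed a fold of 1.5. The log2 fold change was below 0 for 38 of 48, with a median of -0.05 (all genes: -0.003), and 18 of 48 had an unadjusted p below 0.05, against 8317 of all 15587 genes. By DESeq2, 1 gene was higher and 6 were lower. PSMG1 fell by 0.25 (SE 0.0393, adjusted p = 0.000132). It was at 40.8, 47.8 and 44.6 CPM in KO1+MK and 46.6, 45.3 and 44.9 CPM in KO2+MK, so that the 6 treated libraries lay below all untreated knockout libraries (51.9 to 57.9 CPM) and above WT (30.2 to 32.2 CPM), though treated pools were not tested against WT. PSMB5 fell by 0.19 (SE 0.0366, adjusted p = 0.000621), to 117.7, 136.5 and 135.2 CPM in KO1+MK and 136.4, 130.2 and 134.8 CPM in KO2+MK, against 146.8 to 159.8 CPM untreated, without overlap. The call of PSMB5 was lost without KO1 replicate 1 or 3, KO1+MK replicate 2 or 3, KO2 replicate 1 or 3, or KO2+MK replicate 2, at -0.21 to -0.18. The comparisons with WT and with the treated pools share the untreated knockout libraries.

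The other genes high in the knockout pools were at -0.14 for PSME3 (adjusted p = 0.00652), -0.15 for PSMC5 (adjusted p = 0.00161) and -0.07 for PSMA7 (adjusted p = 0.0369). PSMB9 was at 0.09 (adjusted p = 0.411), PSMB8 at -0.18 (adjusted p = 0.016) and PSMC3IP at 0.29 (adjusted p = 0.00247). With a covariate for the line in the edgeR fit, PSME3 (-0.13, adjusted p = 0.000703), PSMC5 (-0.15, adjusted p = 0.000218) and PSMC3IP (0.29, adjusted p = 2.35e-05) passed the test, and DESeq2 called these 3 as well. Within KO1, 0 genes were higher and 1 was lower (10.9% and 8.26% over all genes), again PSMG1, at -0.29 (adjusted p = 0.000628, lost without KO1 replicate 1 or 3 or KO1+MK replicate 3 at -0.30 to -0.26). Within KO2, 1 was higher and 0 were lower (13.1% and 8.78%), the higher one being PSMC3IP at 0.29 (adjusted p = 0.000972, kept only without KO2+MK replicate 3). At an unadjusted p below 0.05 there were 20 of the 48 genes in KO1 and 16 in KO2, against 8196 and 8325 of all 15587 genes. The difference between the pools in the effect of MK2206 passed the test for 0 of the 48 genes in edgeR (0.0128% over all genes). At an unadjusted p below 0.05 there were 0 of the 48, against 1251 of all 15587 genes. The differences ran from -0.25 for PSMB10 to 0.14 for PSMG3.

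Beside the genes found by name, 3 lists and a set of immunoproteasome genes were counted, to be read against the share of all genes called higher and lower, 15.5% and 16.6% in KO, 12.7% and 17.3% in myrAKT, and 12.8% and 8.75% under MK2206. Of 10 cofactors, 1 was higher and 1 lower in KO, 2 were higher and 1 lower in myrAKT, and 1 was higher and 1 lower under MK2206, with medians of 0.07, 0.05 and -0.02. ADRM1, a ubiquitin receptor of the 19S cap, rose by 0.52 in KO (adjusted p = 2.83e-06) and by 0.33 in myrAKT (adjusted p = 0.000107). PAAF1, a chaperone of the 19S base whose name falls outside the rule, fell by 0.65 in KO (adjusted p = 3.97e-05) and by 0.60 in myrAKT (adjusted p = 1.18e-05). It lies on chromosome 11, whose median was -0.15 in KO and -0.54 in myrAKT. POMP, the maturation factor of the 20S core, had means of 91.2 CPM in WT, 103.1 CPM in KO1 and 107.3 CPM in KO2 and did not pass the test for the pools together (0.19, adjusted p = 0.00123). For KO2 alone it was higher (0.23, adjusted p = 0.000122), for KO1 it was at 0.16 (adjusted p = 0.00135), and DESeq2 called it for both pools together (adjusted p = 4.61e-05). AKIRIN2, which takes proteasomes into the nucleus, rose by 0.34 under MK2206 (adjusted p = 1.33e-06), and UCHL5, a deubiquitinase of the cap, fell by 0.16 (adjusted p = 0.00065, lost without any untreated knockout library, KO1+MK replicate 3 or KO2+MK replicate 2, at -0.16 to -0.15).

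Of 7 regulators of proteasome genes, 1 was higher and 1 lower in KO (median -0.10), 0 were higher and 2 lower in myrAKT (median -0.15), and 3 were higher and 0 lower under MK2206 (median 0.16). NFE2L1 fell by 0.28 in KO (adjusted p = 0.000483) and by 0.27 in myrAKT (adjusted p = 0.000159), with means of 483.7 CPM in WT, 425.2 CPM in KO1, 382.5 CPM in KO2 and 402.1 CPM in myrAKT. Its call in KO was lost without KO2 replicate 1 or 3 (-0.27), WT replicate 1 (-0.30) or WT replicate 2 or 3 (-0.25), and that in myrAKT without WT replicate 2 or 3 (-0.26). DDI2, the protease that activates NFE2L1, rose by 0.24 in KO (adjusted p = 0.000401, lost at 0.24 to 0.25 without KO1 replicate 3, KO2 replicate 1 or 3, or WT replicate 2 or 3). It rose further under MK2206, by 0.64 (SE 0.0536, adjusted p = 4.91e-07), from 50.9 to 74.3 CPM on average in KO1 and from 53.1 to 85.3 CPM in KO2. MAFF, a partner of NFE2L1 on DNA, fell by 0.39 in myrAKT (adjusted p = 4.34e-05) and rose by 0.45 under MK2206 (adjusted p = 4.85e-05). In KO it was at -0.34 (adjusted p = 0.00327, and lower by DESeq2 at 0.000223), with calls in KO1 (-0.21, adjusted p = 0.000588, lost without any KO1 library or WT replicate 1 or 3) and KO2 (-0.47, adjusted p = 4.28e-07).

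Of the 17 genes of ubiquitin, its activation and delivery, 5 were higher and 0 lower in KO (median 0.07), 0 were called in myrAKT (median 0.07), and 5 were higher and 3 lower under MK2206 (median 0.03). NPLOC4 and UFD1, the adaptors that bring ubiquitinated proteins to the unfolding enzyme VCP, rose in KO by 0.37 (adjusted p = 2.21e-06) and 0.33 (adjusted p = 1.05e-05). ZFAND5 and ZFAND2A, stress-induced proteins that bind the proteasome, rose under MK2206 by 0.43 (adjusted p = 9.64e-07) and 0.39 (adjusted p = 5.6e-05). Of the 4 neighbours and regulators of the immunoproteasome genes, 0 were higher and 1 was lower in KO (median -0.21), 1 was higher in myrAKT (median 0.14) and 0 were called under MK2206 (median -0.11).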

How the data were processed

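Total RNA of 18 libraries (6 groups, 3 replicates) was depleted of ribosomal RNA and sequenced by the authors. The deposited values are raw counts of reads per Ensembl gene, which the authors made with FastQC, Trim Galore, HISAT2 on hg38 and featureCounts. Versions, the annotation, strand and the treatment of reads that fall in several genes are not given in the sources used here. Groups came from the sample labels. GENCODE release 44 gave symbols, types and positions.

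Genes reaching 1 CPM in 3 or more libraries entered the test, made with edgeR 4.0.16 (TMM, quasi-likelihood test, two-sided, Benjamini-Hochberg over all 15587 genes) in R 4.3.3, each comparison on its own libraries. A gene was called at an adjusted p of at most 0.001 with no minimum fold change. CPM used TMM factors over all libraries, and CPM per kb the Ensembl canonical transcript. Alternatives were DESeq2 1.42.0, other scalings, no CPM filter, all libraries in 1 fit, separate pools, a line covariate, a replicate block, other thresholds and each library left out. Scripts were tested on simulated data. Tables and figures used Python 3.11.15, pandas 2.3.3 and matplotlib 3.10.9.

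Replicates differed by more than counting error (mean chi-square per gene above 1 in each pair). A gene with 0 counts can have been present at up to 3 counts, which covers counting error only. The labels do not say whether the replicate numbers pair the samples, and the main fits treated them as unpaired.

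The named genes were the catalytic pairs, caps, inhibitor and 20S chaperones (with POMP), the 2 largest called changes in each subunit class and gene list in each of the 3 main comparisons, GPS2 and AKT1. The members, the lists and the motifs were chosen with earlier results of these data known, and a gene of the immunoproteasome list is not reported here. The windows of 5, 10 and 20 Mb and the omission of chromosomes 11 and 16 were added after seeing the data.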

Additional observations from a re-analysis of the deposited data

Results flagged for a closer look

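Among the 6 libraries of the knockout pools, or the 6 of the treated pools, 4 of 84 sets of values held a library that stood apart from the rest beyond Dixon's 95% critical value, and chance gives this for about 1 in 20 sets. PSMB8 was at 34.2 CPM in KO2 replicate 2, against 39.7 to 41.7 CPM in the other untreated knockout libraries. PSMD9 was at 18.5 CPM in KO1 replicate 2, against 20.1 to 20.6 CPM. In KO1+MK replicate 1, PSMA7 was at 286.0 CPM (others 302 to 310 CPM) and PSMB5 at 118 CPM (130.2 to 136.5 CPM). That library was also the shallowest, with 23419198 reads, and the part of depth in these values was not tested.

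The change from WT differed between the knockout pools, by the direct test of KO2 against KO1, for PSMC3 (-0.17 log2), PSMD13 (-0.25 log2), PSMD6 (0.18 log2) and PSMG2 (0.18 log2).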

How the results depend on the processing

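Of 2100 values of named genes under the alternatives, 1974 kept their direction and their side of the threshold, 72 fell below it, 54 passed it and 0 turned direction. Counts of called genes, out of 48, moved as follows. At an adjusted p of at most 0.05 there were 31 higher and 5 lower in KO, 12 and 11 in myrAKT, and 1 and 15 under MK2206. With a fold of at least 1.5 as well, 3 were higher in KO, 2 higher and 1 lower in myrAKT, and 0 lower under MK2206. With all 18 libraries in 1 fit, 27 were higher and 2 lower in KO, 1 higher and 8 lower under MK2206, and 2 lower in KO1+MK. In that fit 0 were higher in KO2+MK, 0 higher and 1 lower in KO2 against KO1, and 29 higher and 8 lower in KO against myrAKT. With KO1 and KO2 as separate groups, 27 were higher and 4 lower in KO. DESeq2 gave 26 higher and 1 lower in KO, and 24 higher and 8 lower in KO against myrAKT. It also gave 1 higher and 6 lower under MK2206, 3 lower in KO1+MK and 3 lower in KO2+MK. Under MK2206, 4 were lower with RLE factors, 6 with upper quartiles, 1 without the CPM filter, and 1 higher and 6 lower with a covariate for the line. With library totals, 0 were lower in KO1+MK and 8 lower in KO against myrAKT. Without chromosomes 11 and 16, myrAKT had 4 higher and 2 lower. The cause of these moves was not tested. Upper quartiles also moved the share of higher calls over all genes under MK2206 from 59.3% to 48.3%. Library totals moved it from 42.3% to 51% in myrAKT, from 44% to 50.1% in KO2 against KO1 and from 53.3% to 44% in KO against myrAKT.

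With each library left out in turn, the counts ranged from 4 to 6 higher and 3 to 8 lower in myrAKT, 1 to 3 lower under MK2206, 1 to 3 lower in KO1, 0 to 3 lower in KO1+MK, 0 to 1 higher and 0 to 4 lower in KO2+MK, and 0 to 3 higher and 1 to 2 lower in KO2 against KO1. In KO they ranged from 14 to 25 higher, and 14 of the 20 calls held in all 9 fits. The ranges were 22 to 26 higher in KO1, 16 to 23 in KO2 and 15 to 22 in KO against myrAKT. Of the 27 genes called higher in KO1 and the 23 in KO2, 21 and 16 held in all 6 fits. Deviations of same-numbered replicates correlated at -0.54 to 0.32 (12 of 45 pairs above 0.1), which does not settle whether the numbers pair the samples. A replicate block gave 16 higher and 1 lower in KO, 5 and 4 in myrAKT, 1 lower under MK2206 and 1 lower in KO2+MK. The lowest counts behind a tested core subunit were those of PSMB10 (106 to 299 a library), and what depth limits was not tested.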
